A study of Mus musculus with 12 samples.

Results

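C1q macrophages are aortic cells that carry the transcripts of complement C1q, a protein of innate immunity that macrophages make themselves. They were chosen here by transcripts alone. A barcode with more than 200 genes, more than 1000 unique molecular identifiers (UMIs, 1 for each captured transcript) and under 10% mitochondrial UMIs was a member if it held at least 2 of C1qa, C1qb and C1qc and at least 1 of Csf1r, Tyrobp and Fcer1g. It also had to hold fewer than 2 of the foam cell genes Mmp12, Trem2 and Gpnmb and no UMI of the B cell gene Cd79a or the T cell gene Cd3d. Of 38072 barcodes within the limits, 501 were members, or 1.32%. The members numbered 62 of 12340 in the library labelled Healthy, 107 of 2201 in the atherosclerosis library (AS), 220 of 7215 in the MTZ-treated library and 112 of 16316 in the MTZ-preventive library.

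All 4 groups were labelled as ApoE-/- mice, which lack apolipoprotein E and develop atherosclerosis, on the C57BL/6J background. By the study's methods they were male, 8 weeks old at the start and kept for 24 weeks, and 6 aortas per group were pooled into 1 gene expression library. The group labelled Healthy ate normal chow and was given saline, and AS was given saline on a high-fat diet (cholesterol 1%, fat 10%). MTZ-treated and MTZ-preventive had the same high-fat diet with the carbonic anhydrase inhibitor methazolamide (MTZ; the labels write methoxazolamide) at 25 mg/kg every other day, from week 13 to the end in the first and for all 24 weeks in the second. As every group was a single library, variation among mice was not measured and groups were compared without a test. Each interval below is an exact 95% interval that covers counting error only. Values for the 4 libraries are given in the order labelled Healthy, AS, MTZ-treated and MTZ-preventive.

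Macrophages of the artery wall take up lipid and dying cells, present antigen on MHC class II molecules and recruit other leukocytes with chemokines. Resident macrophages of the adventitia, the outer layer of the vessel, are known for scavenger receptors such as Cd163 and Mrc1, whereas macrophages of plaques are known for lipid handling genes and for osteopontin (Spp1). C1q tags dying cells and lipoproteins for uptake, and its 3 chains are encoded by C1qa, C1qb and C1qc.

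The members held 145900, 172224, 462872 and 320837 UMIs in all, with a median of 1903.5, 1329, 1452 and 2142.5 UMIs per barcode. A level here is a gene's UMI total in the members of a library, scaled to 1000000 UMIs of those members (CPM). A gene without a UMI could therefore be at up to 20.6, 17.4, 6.48 and 9.35 CPM, the level of 3 UMIs. The total depth was lowest for the members of the library labelled Healthy and of AS.

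The label was checked against macrophage genes that the choice did not use. Of 18 such genes, among them Lyz2 (lysozyme), Cd68 and Adgre1 (F4/80), every gene had a UMI in the members of every library. At least 3 of them were found in 41 of 62, 81 of 107, 161 of 220 and 90 of 112 members, or 66.1%, 75.7%, 73.2% and 80.4%. Their summed level was 9945, 11653, 10202 and 9846 CPM in members, against 286, 394, 226 and 277 CPM in stromal barcodes, which were those with at least 3 markers of smooth muscle, of fibroblasts or of endothelium and no UMI of Ptprc, Csf1r, Tyrobp or Fcer1g. Stromal barcodes could not hold Ptprc, which is among the 18 genes, nor Csf1r, Tyrobp or Fcer1g. Their low level was thus set in part by how they were chosen. The members as a group held macrophage transcripts in all 4 libraries, although not every member held 3 of the 18 genes.

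Transcripts of other cell types were common among the members. At least 3 markers of 1 other lineage (smooth muscle, fibroblast, endothelial, neutrophil, adipocyte, B cell or T and NK cell) stood in 45.2%, 75.7%, 63.2% and 67.0% of them. Smooth muscle markers were found in this way in 14, 38, 82 and 61 members, fibroblast markers in 15, 15, 84 and 38, and endothelial markers in 3, 39, 45 and 23. Neutrophil markers were found in 13 members of AS and in no member of the other libraries, and adipocyte markers in 0, 17, 0 and 10. Simulated doublets called 14.5%, 3.74%, 8.18% and 31.3% of the members as 2 cells in 1 barcode. Over all barcodes within the limits, 9.87%, 1.77%, 5.77% and 13.1% were called. The number called was set by the number of barcodes of a library, so the shares of members cannot be compared between libraries. The main groups of macrophage genes, the metallothioneins and the markers of neutrophils and adipocytes are therefore also given for the 31, 24, 73 and 34 members that held at least 3 macrophage genes and fewer than 3 markers of every other lineage, named the cleaner members here. No member barcode was shared between libraries, B cell receptor contigs were found for 1, 0, 2 and 1 members, and a T cell receptor contig for 1 member of MTZ-preventive.

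**Figure D1:**
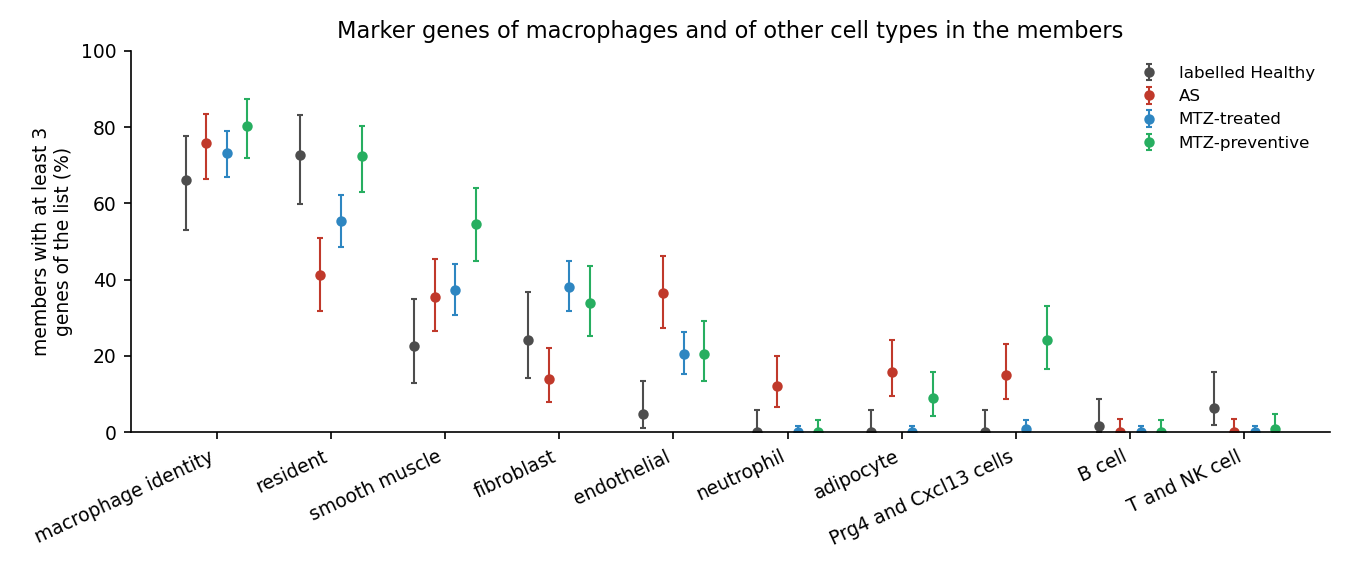
Share of C1q macrophages (percent, y axis) with at least 3 genes of each marker list (x axis) in the 4 libraries, with points for shares and bars for exact 95% binomial intervals. Macrophage genes were found in 66.1% to 80.4% of members, and neutrophil markers in members of AS alone.

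The Apoe gene went against 1 label. Over all barcodes within the limits, Apoe stood at 677 CPM in the library labelled Healthy and at 11.4, 12.6 and 8.46 CPM in the other 3. In the C1q macrophages it was at 11370, 5.81, 17.3 and 9.35 CPM and was found in 53 of 62, 1 of 107, 6 of 220 and 3 of 112 members. The female transcript Xist had 4, 0, 2 and 0 UMIs over all barcodes within the limits. The macrophages of the library labelled Healthy thus carried Apoe transcripts, and its contrast with AS cannot be told apart from a difference in genotype. The 3 comparisons below also share the AS library.

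C1q macrophages took the largest share of barcodes in AS. They made up 0.502% (95% interval 0.385 to 0.644) of the library labelled Healthy, 4.86% (4.0 to 5.84) of AS, 3.05% (2.66 to 3.47) of MTZ-treated and 0.686% (0.566 to 0.825) of MTZ-preventive. The share in AS was 9.68 times that in the library labelled Healthy (7.01 to 13.5). The share in MTZ-treated was 0.627 times that in AS (0.496 to 0.798), and the share in MTZ-preventive was 0.141 times that in AS (0.107 to 0.186).

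The shares moved with the lymphocytes in the denominator and with the marker genes of other lineages, whose part in the result was not tested. Barcodes with a UMI of Cd79a or Cd3d made up 61.1%, 3.23%, 5.81% and 24.1% of the libraries, and without them the shares of C1q macrophages were 1.29%, 5.02%, 3.24% and 0.905%, so that AS was 3.89 times the library labelled Healthy (2.82 to 5.41). Without the members that held other lineages' markers, the shares were 0.276%, 1.18%, 1.12% and 0.227%. MTZ-treated was then 0.950 times AS, with an interval (0.604 to 1.54) that spans 1, whereas AS still stood at 4.29 times the library labelled Healthy (2.47 to 7.36) and MTZ-preventive at 0.192 times AS (0.113 to 0.330). A difference in share between MTZ-treated and AS was thus not detectable in this narrower set.

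**Figure D2:**
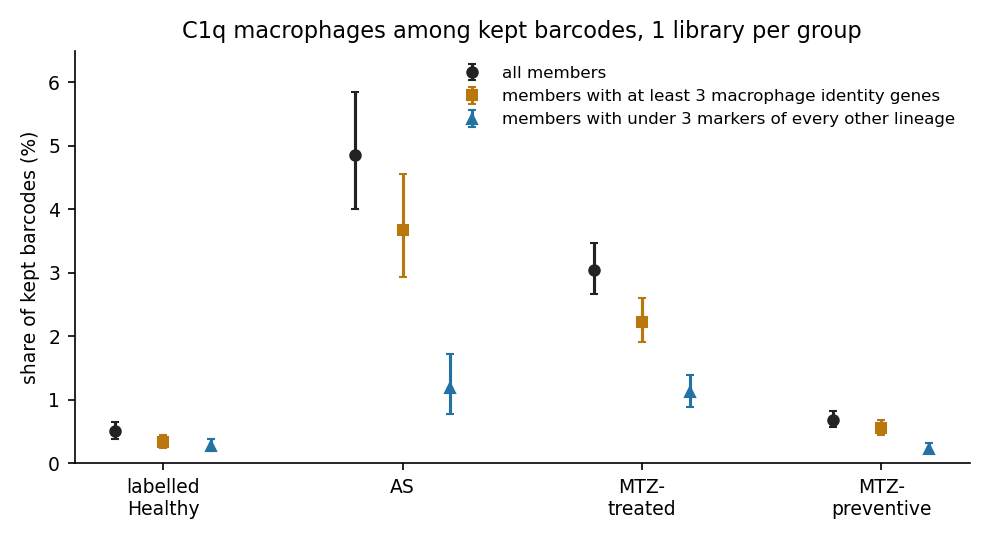
Share of barcodes that were C1q macrophages (percent, y axis) in each library (x axis), for all members (circles), members with at least 3 macrophage genes (squares) and members with under 3 markers of every other lineage (triangles), with exact 95% binomial intervals. All members made up 4.86% of AS and 3.05% of MTZ-treated, and the triangles of these libraries lie at 1.18% and 1.12%.

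The genes that chose the members are given as a description. C1qa was at 3537, 1986, 2984 and 3291 CPM, C1qb at 4352, 3101, 3876 and 4597 CPM, and C1qc at 3077, 2224, 2739 and 2640 CPM. The macrophage growth factor receptor Csf1r was at 452, 157, 184 and 268 CPM and was found in 30, 21, 57 and 36 members. Each C1q gene was lowest in AS, and the Csf1r level in the library labelled Healthy was above those in the other libraries.

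Among these genes, Tyrobp and Fcer1g, adaptors of myeloid receptors, were at 1940, 1678, 2322 and 1742 CPM and at 2042, 2038, 2683 and 2213 CPM. The metalloelastase gene Mmp12 was at 6.85, 192, 13 and 3.12 CPM, and the lipid receptor gene Trem2 at 199, 354, 521 and 443 CPM. A member could hold 1 of the 3 foam cell genes, and 12, 54, 105 and 46 members did.

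Just inside the limit on C1q genes, 22, 36, 65 and 25 members held 2 of the 3 chains, with a median of 2, 2, 3 and 3 of the 18 macrophage genes. Just outside it, 19, 88, 87 and 32 barcodes held 1 chain and met the other limits, with a median of 1, 2, 2 and 2 macrophage genes. Members with all 3 chains numbered 40, 71, 155 and 87 and had a median of 8.5, 5, 5 and 6 of these genes. On the side of the foam cell genes, 0, 57, 15 and 10 barcodes held at least 2 of Mmp12, Trem2 and Gpnmb and were otherwise like the members, and these are called foam-type barcodes.

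After every barcode was thinned to 1000 UMIs, C1qa was found in 72.6%, 75.7%, 81.8% and 76.8% of the members and in 0.550%, 4.03%, 1.04% and 0.470% of the stromal barcodes, whose median depth was 1725, 1340, 1627 and 1803.5 UMIs. Before thinning, 52, 87, 200 and 99 members held it. The stromal share was highest in AS. The members held 74.8%, 36.1%, 75.3% and 70.2% of all C1qa UMIs of their libraries, and in AS the foam-type barcodes held 492 of the other C1qa UMIs, against 342 in the members and 947 in all.

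Between libraries, a gene was counted as different where its levels were at least 2-fold apart, among genes with at least 20 UMIs in the members of either library. Of 1351 such genes, 233 were at least 2-fold higher in AS than in the library labelled Healthy (17.2%) and 181 were at least 2-fold lower (13.4%). Of 2990 genes, 345 were higher in MTZ-treated than in AS (11.5%) and 131 lower (4.38%). Of 2349 genes, 321 were higher in MTZ-preventive than in AS (13.7%) and 83 lower (3.53%). The median log2 ratio over all genes counted was 0.13, 0.16 and 0.17 in the 3 comparisons. These percentages are the background against which the counts of each gene group are to be read.

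The MHC class II genes, which build the molecules that show antigen to helper T cells, differed widely between the libraries. Their 8 genes together were at 32145 CPM in the library labelled Healthy (31232 to 33079), 534 in AS (431 to 655), 13276 in MTZ-treated (12946 to 13612) and 14581 in MTZ-preventive (14166 to 15005). AS was thus 60.2-fold below the library labelled Healthy (49.0 to 74.8), MTZ-treated was 24.9-fold above AS (20.2 to 30.9) and MTZ-preventive 27.3-fold above AS (22.2 to 33.9). With looser limits on barcodes (500 UMIs and 20% mitochondrial), the log2 ratios were -4.41, 2.98 and 3.40 in place of -5.91, 4.64 and 4.77. All 6 genes with enough UMIs were lower in AS than in the library labelled Healthy and higher in both MTZ libraries than in AS, with median log2 ratios of -6.04, 4.79 and 4.86. The remaining H2-DMb2 and Ciita, the master regulator of the group, had 8 UMIs or fewer in each library.

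H2-Aa, which encodes the alpha chain of the I-A molecule, was at 4469, 29.0, 1519 and 2310 CPM and was found in 52 of 62, 5 of 107, 77 of 220 and 53 of 112 members. Its partner H2-Ab1, the beta chain, was at 4894, 58.1, 2031 and 2135 CPM, and H2-Eb1, the beta chain of I-E, at 5079, 52.3, 2150 and 2104 CPM. All 3 were lowest in AS and highest in the library labelled Healthy, with both MTZ libraries between. In MTZ-treated over AS the ratios were 52.3 (22.3 to 162) for H2-Aa, 35 (18.9 to 73.2) for H2-Ab1 and 41.1 (21.6 to 90.2) for H2-Eb1. In MTZ-preventive over AS they were 79.5 (33.9 to 246), 36.8 (19.9 to 77.0) and 40.3 (21.1 to 88.4).

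Cd74, the invariant chain that guides class II molecules through the cell, was at 16930, 331, 7266 and 7643 CPM and was found in 60, 20, 137 and 84 members. AS was 51.1-fold below the library labelled Healthy (39.4 to 67.7). H2-DMa, which helps load peptides, was at 425, 23.2, 194 and 190 CPM, and its partner H2-DMb1 at 288, 34.8, 110 and 168 CPM. The loading genes showed the same order of AS below the other 3 libraries, at smaller ratios of 8.37 (3.16 to 31.4) and 3.16 (1.36 to 9.02) for MTZ-treated over AS.

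The stretch just upstream of 3 of these genes is printed because the genes moved together and because of known shared boxes. MHC class II promoters are known to share an X box and a Y box, at which the factors that recruit Ciita assemble. The sequences are from RefSeq (GRCm38.p6) and run 5′ to 3′ on the strand of the gene over the 120 bases before its start, with matches to the letters CTNGNAACT (X box) and TGATTGG (Y box) in capitals. The letters were set after these sequences had been seen, and the 2 do not overlap.
H2-Aa, chr17:34287824-34287943, minus strand: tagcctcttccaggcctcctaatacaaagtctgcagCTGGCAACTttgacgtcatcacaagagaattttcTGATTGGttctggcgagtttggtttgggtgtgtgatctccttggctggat
H2-Eb1, chr17:34305747-34305866, plus strand: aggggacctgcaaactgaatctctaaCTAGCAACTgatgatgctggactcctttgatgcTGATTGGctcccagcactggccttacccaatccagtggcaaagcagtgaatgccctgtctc
H2-DMb1, chr17:34153071-34153190, plus strand: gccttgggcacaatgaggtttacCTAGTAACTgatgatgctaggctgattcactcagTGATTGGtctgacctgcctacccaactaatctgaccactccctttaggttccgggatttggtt

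The X box match began 84, 94 and 97 bases before the start of H2-Aa, H2-Eb1 and H2-DMb1, and the Y box match followed after a gap of 25, 24 and 25 bases. Of the 8 genes, 5 had a promoter among the windows kept after a filter on chromosome, and 3 held both matches. Cd74, H2-Ab1 and Ciita had no window among those kept and are not covered. H2-DMb2 held the Y box letters alone and H2-DMa neither. Over 32851 promoter windows of 300 bases, searched on both strands, 4.10% held the X box letters, 7.82% the Y box letters and 0.35% both. These matches describe the letters of the windows and were not measured as bound sites.

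The MHC class II level also differed from member to member. The median member was at 17306, 0, 1532 and 2648 CPM, and the upper quartile at 41052, 716, 12003 and 7761 CPM. No MHC class II UMI was found in 1 of 62, 69 of 107, 63 of 220 and 20 of 112 members, and the highest member stood at 138485, 9483, 154699 and 128490 CPM. The MTZ-treated library thus held both members without any and members as high as the highest of the library labelled Healthy, whereas no AS member came above 9483 CPM.

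**Figure D3:**
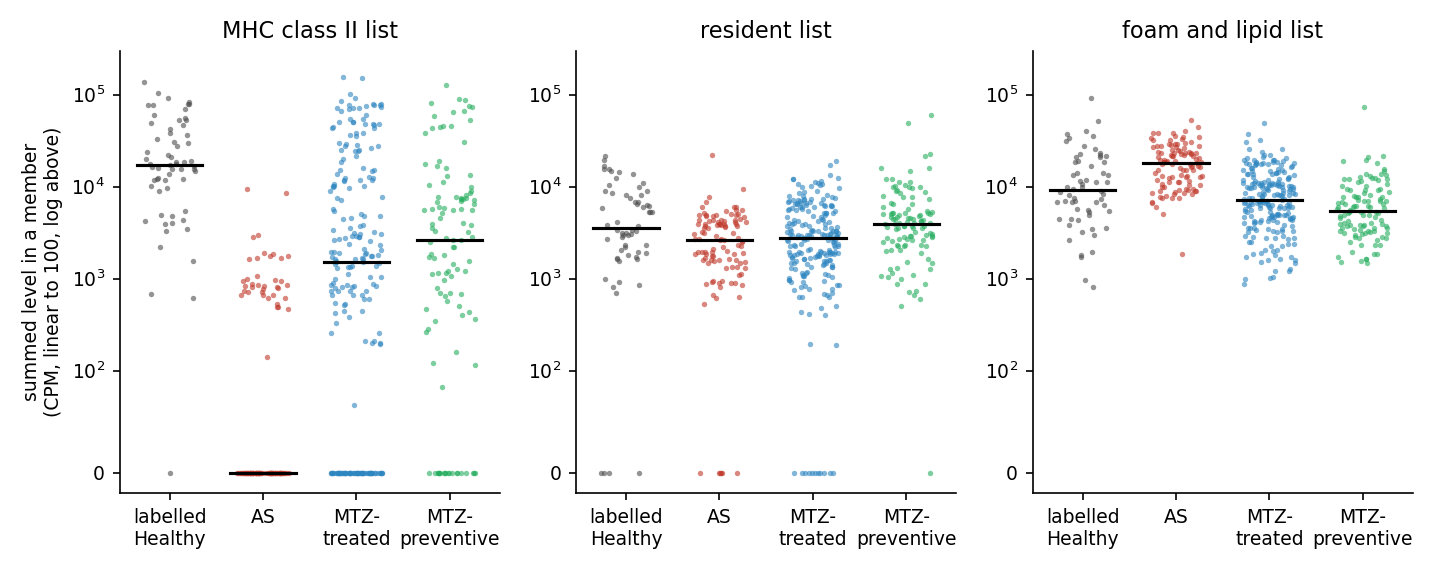
Summed CPM of the MHC class II, resident and foam and lipid genes in each C1q macrophage (y axis, linear to 100 and logarithmic above) by library (x axis), with 1 point per member and a line at the median. The median of MHC class II was 0 CPM in AS and 1532 CPM in MTZ-treated, while the resident medians lay between 2618 and 3970 CPM in all 4 libraries.

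MHC class II transcripts were also found outside the members. In stromal barcodes the group stood at 2213, 216, 343 and 1259 CPM, or far below the members in 3 libraries and below them by less than 3-fold in AS. After thinning, Cd74 was found in 95.2%, 15.0%, 55.0% and 66.1% of the members and in 58.1%, 10.8%, 13% and 39.7% of the stromal barcodes. The gap between AS and the other libraries was also present in the cleaner members, at 46924, 633, 27551 and 26163 CPM, which gave 43.6-fold for MTZ-treated over AS (30.3 to 65.1) and 41.4-fold for MTZ-preventive over AS (28.8 to 61.8). Dendritic cell genes, another source of class II, summed to 164, 0, 79.9 and 77.9 CPM over 9 genes, led by Batf3, and all 9 were at 0 in AS. Their part in the result was not tested.

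Genes of resident macrophages were lower in AS than in the library labelled Healthy and in part higher in the MTZ libraries. The 21 genes together were at 6779, 2973, 3511 and 5853 CPM, so that AS was 2.28-fold below the library labelled Healthy (2.05 to 2.54), MTZ-treated 1.18-fold above AS (1.07 to 1.31) and MTZ-preventive 1.97-fold above AS (1.78 to 2.18). Of 14 genes with enough UMIs, 10 were at least 2-fold lower and 1 higher in AS than in the library labelled Healthy. The median log2 ratio was -1.79 over the 11 of them with a UMI in both libraries. Of 13 genes, 6 were higher and 2 lower in MTZ-treated than in AS (median 0.74 over 11 genes). Of 15 genes, 9 were higher and none lower in MTZ-preventive than in AS (median 0.95 over 12 genes). Genes without a UMI in AS were left out of these medians.

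The mannose receptor Mrc1 was at 226, 0, 60.5 and 112 CPM and the hemoglobin scavenger receptor Cd163 at 171, 0, 15.1 and 34.3 CPM. Neither had a UMI in the 107 AS members, which put Mrc1 at least 13-fold and Cd163 at least 9.84-fold lower in AS than in the library labelled Healthy, taking 3 UMIs in AS as the bound. Mrc1 was at least 3.47-fold higher in MTZ-treated and at least 6.44-fold higher in MTZ-preventive than in AS.

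F13a1, the coagulation factor XIII A chain, was at 295, 11.6, 77.8 and 187 CPM, and its AS level rested on 2 UMIs. Cbr2, a carbonyl reductase, was at 651, 23.2, 205 and 390 CPM. Pf4, the chemokine platelet factor 4, was at 1076, 110, 562 and 452 CPM and was found in 32, 10, 72 and 27 members. In MTZ-treated over AS the ratios were 6.70 (1.72 to 57.4) for F13a1, 8.84 (3.34 to 33.1) for Cbr2 and 5.09 (3.19 to 8.60) for Pf4, and each of these genes was lowest in AS.

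The folate receptor gene Folr2, a marker of resident macrophages, was at 302, 87.1, 149 and 184 CPM. Its ratio was 1.71 in MTZ-treated over AS, with an interval (0.969 to 3.22) that spans 1, and 2.11 in MTZ-preventive over AS (1.18 to 4.01). The scavenger receptor Stab1 was at 377, 81.3, 136 and 103 CPM and was less than 2-fold apart between AS and either MTZ library. Lyve1 and Timd4, 2 classical resident markers, had 18 and 5 UMIs or fewer in each library, too few for a comparison. Igfbp4, which fibroblasts also express, went the other way, at 665, 1341, 657 and 898 CPM. Ltc4s, also of the resident list, was at least 2-fold lower in MTZ-treated than in AS too, where it stood at 203 CPM.

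The chemokine gene Ccl8 was at 260, 0, 158 and 1010 CPM, and 1 member held 56.2% of its UMIs in MTZ-preventive. Retnla, a gene of alternatively activated macrophages, was at 2913, 0, 923 and 1530 CPM and was found in only 7, 0, 16 and 6 members, with 83.8% of the UMIs in 1 member of the library labelled Healthy and 60.1% in 1 member of MTZ-preventive. Ccl8 was found in 7, 0, 25 and 26 members. Both genes lacked a UMI in AS.

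The resident genes were less particular to the members than the class II genes, since stromal barcodes held 2432, 3611, 2784 and 3419 CPM of them. Selenop and Igfbp4 made up much of this. In the cleaner members, the 21 genes were at 9079, 2399, 3794 and 7962 CPM, which gave 1.58-fold for MTZ-treated over AS (1.29 to 1.95) and 3.32-fold for MTZ-preventive over AS (2.73 to 4.07). Without members that held a foam cell gene, the log2 ratio of MTZ-preventive over AS was 0.24 in place of 0.98. After thinning, members with at least 2 resident genes and at least 2 MHC class II genes numbered 46 of 62, 1 of 107, 59 of 220 and 44 of 112. Members with at least 2 resident genes and fewer than 2 class II genes numbered 2, 59, 81 and 38. At least 2 resident genes were found in 77.4%, 56.1%, 63.6% and 73.2% of the members and in 42.8%, 56.5%, 51.6% and 58.5% of the stromal barcodes, so that the share in AS members was at the stromal background. At least 2 class II genes were found in 93.5%, 5.61%, 41.8% and 51.8% of the members and in 49.1%, 4.12%, 7.58% and 26.6% of the stromal barcodes.

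**Figure D4:**
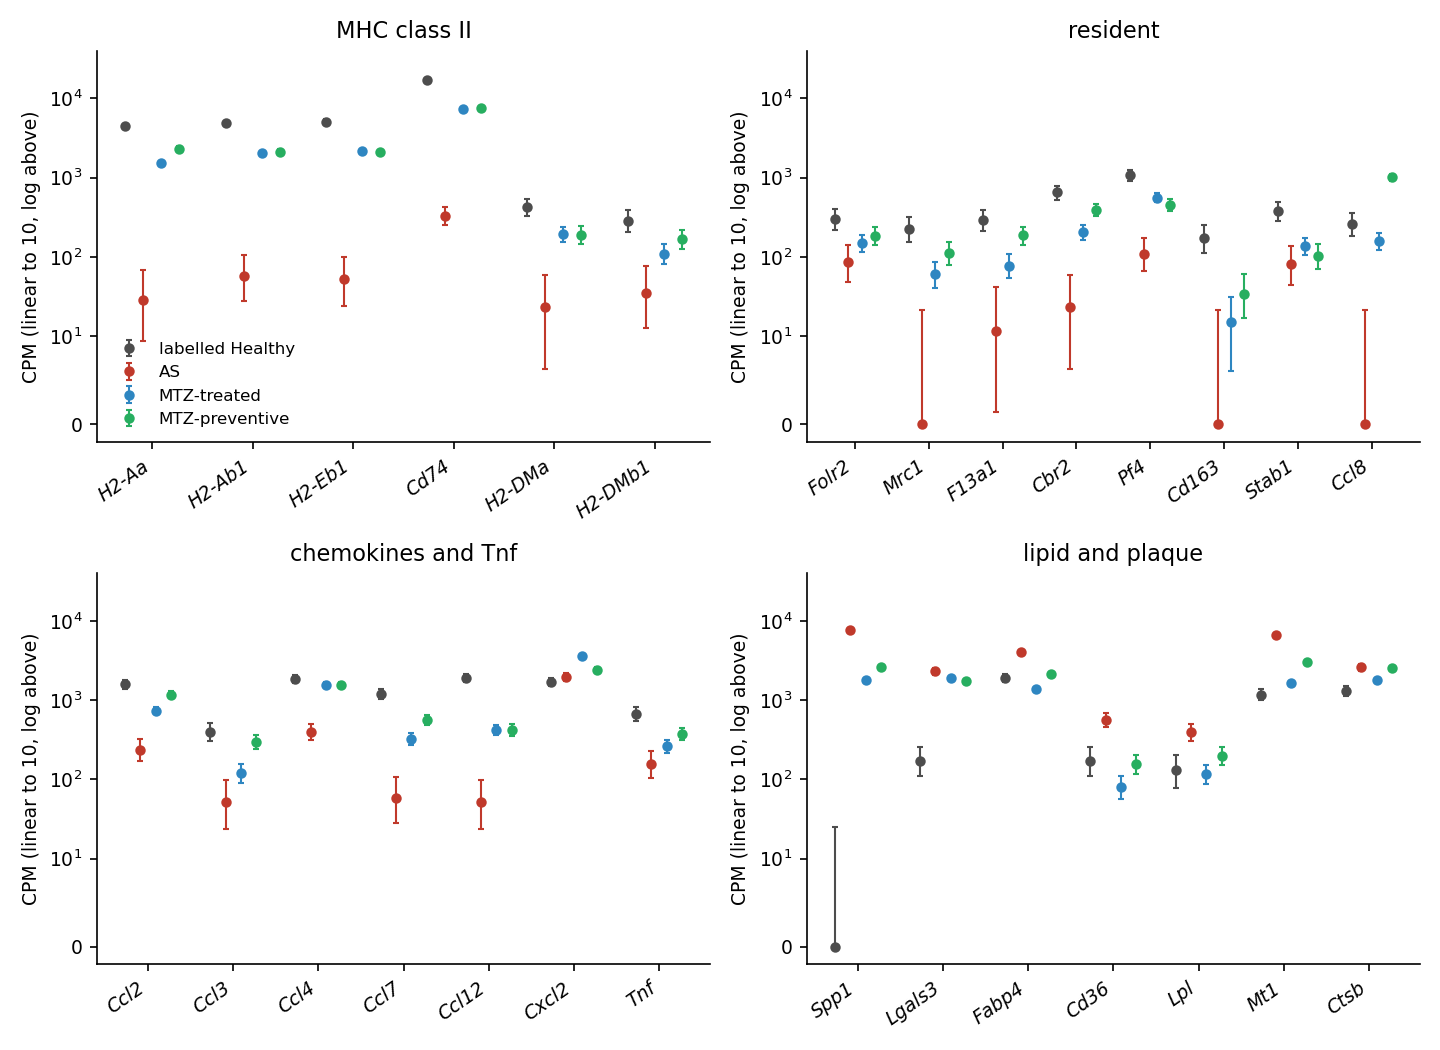
Level of named genes in the C1q macrophages (CPM, y axis, linear to 10 and logarithmic above) in the 4 libraries, with points for summed levels and bars for exact 95% Poisson intervals. AS lies lowest for every MHC class II gene shown and highest for Spp1 (7676 CPM) and Mt1 (6602 CPM).

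Chemokine genes formed the next group. The 25 cytokine, chemokine and NF-kB feedback genes summed to 14051, 6608, 10921 and 12792 CPM, and AS was 2.13-fold below the library labelled Healthy (1.98 to 2.29). None of 14 genes was at least 2-fold higher and 8 were lower in AS, with a median log2 ratio of -1.50. Of 16 genes, 5 were higher and none lower in MTZ-treated than in AS (median 0.72), and of 17 genes 10 were higher and none lower in MTZ-preventive (median 1.25).

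Ccl2, which draws monocytes into tissue, was at 1583, 238, 739 and 1172 CPM. Ccl7, a ligand of the same receptor, was at 1199, 58.1, 324 and 567 CPM, and Ccl12, a mouse relative of Ccl2, at 1892, 52.3, 419 and 421 CPM. All 3 were lowest in AS, and MTZ-treated stood 3.10-fold (2.24 to 4.40), 5.58-fold (2.95 to 11.9) and 8.02-fold (4.14 to 17.8) above it. Ccl12 was nearly confined to macrophages in these libraries, with stromal levels under 1 CPM, and the members held 78.6%, 20%, 91.5% and 79.4% of its UMIs.

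Ccl3 and Ccl4, which attract T cells and other leukocytes, were at 398, 52.3, 119 and 299 CPM and at 1857, 401, 1564 and 1562 CPM. Tnf, the cytokine tumour necrosis factor, was at 679, 157, 261 and 374 CPM, with a ratio of 1.67 in MTZ-treated over AS (1.09 to 2.63) and 2.39 in MTZ-preventive over AS (1.56 to 3.77). Cxcl2, which attracts neutrophils, departed from this order at 1693, 1968, 3560 and 2425 CPM. It was less than 2-fold apart in all 3 comparisons.

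The summed levels depended on the members with 1 foam cell gene. Without them, the log2 ratio was -0.41 in place of -1.09 for AS over the library labelled Healthy, -0.22 in place of 0.72 for MTZ-treated over AS and 0.35 in place of 0.95 for MTZ-preventive over AS. The median member was at 6322, 5190, 5598 and 7680 CPM and the highest at 106888, 76404, 85356 and 135321 CPM, so that the median members lay closer together than the sums. In the cleaner members the group was at 21183, 8747, 19349 and 19669 CPM.

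Among genes of lipid handling and of plaque macrophages, Spp1 and Cd36 were at least 2-fold higher in AS than in each of the other libraries. Their 20 genes summed to 16388, 18435, 8369 and 9874 CPM, with Apoe leading in the library labelled Healthy and Spp1 in AS. Of 11 genes with enough UMIs, 6 were at least 2-fold higher in AS than in the library labelled Healthy and 1, Apoe, was lower. Of 13 genes, none was higher and 4 were lower in MTZ-treated than in AS, and of 12 genes none was higher and 2 were lower in MTZ-preventive. The median log2 ratios were 1.0, -0.30 and -0.57. The first was taken over 10 genes and left out Spp1, which had no UMI in the library labelled Healthy. In the cleaner members the group was at 20018, 22467, 9295 and 12344 CPM.

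Spp1 (osteopontin) was at 0, 7676, 1785 and 2634 CPM and was found in 0 of 62, 87 of 107, 96 of 220 and 30 of 112 members. Taking 3 UMIs in the library labelled Healthy as the bound, the Spp1 level in AS was at least 373-fold higher. The exact lower bound of this ratio was 303-fold. MTZ-treated was 4.30-fold below AS (3.94 to 4.70). MTZ-preventive was 2.92-fold below AS (2.67 to 3.18), with 74.8% of its UMIs in 1 member. Stromal barcodes held 8.13, 2389, 475 and 54.3 CPM. After thinning, Spp1 was found in 0%, 77.6%, 39.5% and 22.3% of the members and in 0.444%, 17.6%, 2.17% and 1.29% of the stromal barcodes, so that the members stood above the stromal share in all libraries but the one labelled Healthy.

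Lgals3 (galectin 3) was at 171, 2323, 1890 and 1724 CPM, or 13.6-fold higher in AS than in the library labelled Healthy (9.05 to 21.2) and less than 2-fold apart between AS and either MTZ library. The fatty acid receptor Cd36 was at 171, 569, 79.9 and 156 CPM, and lipoprotein lipase (Lpl) at 130, 395, 117 and 200 CPM. MTZ-treated stood 7.12-fold (4.83 to 10.7) and 3.38-fold (2.33 to 4.93) below AS for these. Fabp4, a fatty acid carrier of macrophages, endothelial cells and adipocytes, was at 1912, 4024, 1376 and 2110 CPM, below the stromal 3567, 7048, 3154 and 4978 CPM, and 1 member of the library labelled Healthy held 55.9% of its UMIs there. Cd36, Lpl and Fabp4 are also made by endothelial cells or adipocytes, whose markers were most frequent in AS members, and the part of those cells in the result was not tested.

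The lysosome genes were close between AS and the MTZ libraries. Their 16 genes summed to 6628, 9284, 7464 and 9884 CPM, and to 8266, 12651, 9733 and 13663 CPM in the cleaner members. Of 15 genes, 3 (the proteases Ctsb and Ctsd and the hexosaminidase Hexa) were at least 2-fold higher and 1 (Ctsc) was lower in AS than in the library labelled Healthy. None of 16 genes was 2-fold apart in MTZ-treated over AS, and only Ctsc was higher in MTZ-preventive. Ctsb was at 1295, 2595, 1774 and 2546 CPM, Ctsd at 302, 714, 380 and 711 CPM and Ctsc at 308, 139, 220 and 365 CPM.

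Receptors and bridging proteins for dying cells gave mixed directions. The 15 genes summed to 1714, 2311, 1344 and 1764 CPM, near the stromal 1873, 2212, 1609 and 2003 CPM. In AS over the library labelled Healthy, 3 of 6 genes were higher (Pros1, Cd36 and Lrp1) and 2 lower (Gas6 and Stab1). In MTZ-treated over AS, Axl was higher and Pros1, Cd36 and Lrp1 were lower among 9 genes. In MTZ-preventive over AS, Axl and Mfge8 were higher and Cd36 lower among 8. Axl, a receptor that binds Gas6 on dying cells, was at 89.1, 23.2, 62.7 and 87.3 CPM, and its ratio in MTZ-treated over AS was 2.70, with an interval (0.947 to 10.6) that spans 1.

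Outside C1q, the complement genes were also mixed. The 12 genes summed to 1385, 1951, 1605 and 1736 CPM, and the stromal level was 1507, 2488, 2064 and 2955 CPM. C3, the central component, was at 20.6, 372, 326 and 240 CPM, or 18.1-fold higher in AS than in the library labelled Healthy (5.91 to 89.9). Properdin (Cfp), which stabilises the alternative pathway, was at 158, 29.0, 90.7 and 203 CPM. The integrin chains Itgam and Itgb2, which form complement receptor 3, were at 54.8, 157, 62.7 and 74.8 CPM and at 61.7, 203, 77.8 and 134 CPM. In AS over the library labelled Healthy, 3 of 9 genes were higher and 2 lower, in MTZ-treated over AS 1 of 10 was higher and 3 lower, and in MTZ-preventive over AS 2 of 9 were higher and 1 lower. Cfp was lowest in AS, while Itgam and Itgb2 were highest there.

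Among the macrophage identity genes, Lyz2 was at 5490, 7386, 6758 and 5442 CPM and Cd68 at 356, 354, 311 and 424 CPM, both less than 2-fold apart in all comparisons. Maf, a transcription factor of resident macrophages, was at 267, 17.4, 86.4 and 53.0 CPM. Aif1 (Iba1) was at 315, 34.8, 138 and 131 CPM. Both Maf and Aif1 were lowest in AS, where they rested on 3 and 6 UMIs. Over the 18 genes, 2 of 13 (Itgam and Ctss) were higher and 3 lower in AS than in the library labelled Healthy. In MTZ-treated over AS, 4 of 16 were higher and 2 (Itgam and Ctss) lower. In MTZ-preventive over AS, 3 of 15 were higher and 1 (Itgam) lower.

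Iron genes differed little between libraries. The 10 genes summed to 16902, 20526, 24145 and 21675 CPM, led by the ferritin heavy chain Fth1 at 8718, 13640, 13980 and 12960 CPM. In AS, 1 of 5 genes was lower than in the library labelled Healthy (Cd163), none of 6 was 2-fold apart in MTZ-treated over AS, and 1 of 5 was higher in MTZ-preventive (the heme oxygenase Hmox1, at 274, 151, 117 and 355 CPM). Ferritin transcripts were thus within 2-fold of each other in the 4 libraries.

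The metallothioneins Mt1 and Mt2, which bind zinc and copper, were highest in AS. Mt1 was at 1179, 6602, 1644 and 3055 CPM and Mt2 at 130, 1016, 190 and 380 CPM. Both were at least 2-fold higher in AS than in each of the other libraries. Mt1 was 5.60-fold higher in AS than in the library labelled Healthy (4.77 to 6.61), 4.02-fold lower in MTZ-treated than in AS (3.66 to 4.41) and 2.16-fold lower in MTZ-preventive (1.98 to 2.36). The stromal level of Mt1 was 1048, 11680, 1791 and 7043 CPM, above that of the members in AS and in both MTZ libraries. The 6 genes of the metallothionein and zinc list summed to 1432, 7746, 1905 and 3553 CPM in all members and to 1401, 4581, 2040.2 and 1276 CPM in the cleaner members. AS was 5.41-fold above the library labelled Healthy in all members and 3.27-fold in the cleaner ones (2.6 to 4.13). MTZ-treated was 4.06-fold below AS in all members and 2.25-fold in the cleaner ones (1.88 to 2.67), whereas MTZ-preventive was 2.18-fold below AS in all members and 3.59-fold in the cleaner ones (2.93 to 4.40), so that the order of the MTZ libraries turned. The 4 other genes of this list, zinc transporters and the metal-sensing factor Mtf1, stayed under 20 UMIs in each comparison.

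The carbonic anhydrases, the enzymes that methazolamide inhibits, were rare in C1q macrophages. Their 13 genes summed to 41.1, 215, 41.0 and 262 CPM, below the stromal 137, 1020.1, 193 and 344 CPM, and 9, 9, 6 and 8 of them had no UMI. Only Car3, the carbonic anhydrase of muscle and fat, had enough UMIs, at 13.7, 122, 6.48 and 221 CPM. It was 8.89-fold higher in AS than in the library labelled Healthy (2.17 to 78.2) and 18.8-fold lower in MTZ-treated than in AS (5.62 to 98.5). Car3 is also an adipocyte marker, and the adipocyte list as a whole summed to 27.4, 2909, 13 and 2422 CPM in the members and to 229, 10273, 605 and 4708 CPM in the stromal barcodes.

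Interferon-stimulated genes summed to 4181, 2468, 2912 and 2777 CPM, and the stromal level was 3412, 3347, 3759.8 and 2797 CPM. In AS, 5 of 6 genes were lower than in the library labelled Healthy (Isg15, Irf7, Rsad2, Bst2 and Cxcl10), with 90.5% of the Rsad2 UMIs of the latter in 1 member. None of 4 genes was 2-fold apart in either MTZ comparison. Isg15 was at 439, 151, 248 and 240 CPM. Without the members that held other lineages' markers, the log2 ratio of the summed level went from -0.76 to -1.60 in AS over the library labelled Healthy and from 0.17 to 1.14 in MTZ-preventive over AS.

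Immediate early genes, which tissue digestion induces, and heat shock genes are given beside the other groups because their summed levels differed between libraries. The immediate early genes summed to 21720, 14922, 17694 and 23258 CPM in members and to 21235, 18048, 18551 and 22789 CPM in stromal barcodes. In AS, 3 of 15 were lower than in the library labelled Healthy (Egr1, Nr4a1 and Klf4). None of 15 was 2-fold apart in MTZ-treated over AS, and 2 of 15 (Fosb and Nr4a1) were higher in MTZ-preventive. Over all genes counted, 13.4% were lower in AS than in the library labelled Healthy. Those higher were 11.5% in MTZ-treated over AS and 13.7% in MTZ-preventive over AS. No immediate early count was far above these shares. Heat shock genes summed to 7533, 4308, 6064 and 8525 CPM, with 4 of 8 lower in AS than in the library labelled Healthy, 3 of 10 higher in MTZ-treated than in AS and 4 of 9 higher in MTZ-preventive. Hspa1a, an inducible chaperone, was at 857, 128, 454 and 545 CPM in members and at 461, 172, 304 and 315 CPM in stromal barcodes. Both groups were lowest in AS in members, and their part in the differences between the libraries was not tested.

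Growth factor and matrix genes summed to 1542, 3600, 2655 and 2818 CPM. Fibronectin (Fn1) was at 247, 1446, 871 and 1172 CPM and the protease inhibitor Timp1 at 20.6, 383, 186 and 318 CPM, and these were the 2 of 6 genes that were higher in AS than in the library labelled Healthy. In MTZ-treated over AS, 1 of 8 genes (Mmp2) was higher and 1 (Timp1) lower, and none of 7 was 2-fold apart in MTZ-preventive. Fn1 and Timp1 are also fibroblast products, and the fibroblast list, led by Col3a1 in AS, summed to 4455, 2799, 5822 and 1761 CPM in the members. Genes of dividing cells were low, at 411, 238, 339 and 237 CPM over 10 genes.

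Among the 10 genes with the highest lower bound and the 10 with the lowest upper bound of each ratio, many belonged to other cell types. In AS over the library labelled Healthy, the highest after Spp1 were Hp, Cfd, S100a9, Cxcl13 and Hbb-bs. Of these, Cfd (adipsin, an adipocyte product) was at 13.7, 2468, 2.16 and 2001 CPM in members and at 156, 8492, 436 and 4071 CPM in stromal barcodes. The haptoglobin gene Hp was at 0, 1527, 32.4 and 704 CPM, against 11.5, 2271, 60.2 and 1933 CPM in stromal barcodes. Cxcl13, the B cell chemokine, was at 6.85, 1051, 49.7 and 605 CPM, and 44.8% of its AS UMIs lay in 1 member. Cfd, Hp and Cxcl13 were thus high in the members of the 2 libraries whose stromal barcodes were also high in them.

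The calprotectin genes S100a8 and S100a9, which neutrophils express, were at 6.85, 505, 4.32 and 0 CPM and at 0, 790, 17.3 and 0 CPM. Stromal barcodes held 8.34, 478, 4.47 and 13.2 CPM of S100a8 and 15.2, 643, 10.1 and 23.5 CPM of S100a9, close to the members in AS. The neutrophil list as a whole summed to 54.8, 1504, 28.1 and 6.23 CPM in members, and Hbb-bs, a hemoglobin gene, stood at 0, 418, 51.9 and 6.23 CPM among red blood cell genes that summed to 0, 610, 84.3 and 9.35 CPM. These genes set the AS members apart in all 3 comparisons and the AS stromal barcodes too. In the cleaner members, which the choice limited to fewer than 3 of these markers each, neutrophil genes were at 94.2, 305, 11.7 and 14.2 CPM and adipocyte genes at 47.1, 1309, 11.7 and 113 CPM.

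At the other end, the lowest in AS over the library labelled Healthy included Apoe, Retnla, 4 of the MHC class II genes (H2-Aa, H2-Eb1, H2-Ab1 and Cd74), Ccl12, Ccl8 and Ccl7. Highest in MTZ-treated over AS were Retnla, the same 4 class II genes, Ccl8, Ccl12, Rcn3 and the fibroblast genes Sfrp4 and Postn, with 56.0% of the Postn UMIs in 1 member. Sfrp4, a secreted Wnt antagonist, was at 13.7, 122, 1238 and 125 CPM, against 504, 849, 2417 and 1057 CPM in stromal barcodes. Highest in MTZ-preventive over AS were Retnla, Ccl8, the 4 class II genes, Cnn1, Cbr2, Clec10a and Gzma, of which Cnn1 is a smooth muscle gene (34.3, 5.81, 49.7 and 362 CPM) and Gzma came from 1 member.

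The smooth muscle list summed to 1947, 2386, 4755 and 7203 CPM in members and to 19834, 7448, 17297 and 13558.5 CPM in stromal barcodes, and 6 of its 7 genes were higher in MTZ-preventive members than in AS members. The endothelial list summed to 2296, 5127, 1931 and 2537 CPM, with 5 of 5 genes higher in AS than in the library labelled Healthy. Fabp4, which macrophages and adipocytes also express, made up 1912, 4024, 1376 and 2110 CPM of these sums. Its limit in the library labelled Healthy, given above, applies to the ratios of this list too. For the endothelial list, AS was 2.23-fold above the library labelled Healthy in all members and 6.16-fold with doublets left out. The ratio was 10.9 in members with at least 3 macrophage genes and 1.09 (0.925 to 1.30) in those with fewer. Markers of B cells were at 350, 163, 166 and 153 CPM, those of T and NK cells at 260.5, 105, 177 and 842 CPM, those of blood monocytes at 158, 325, 151 and 237 CPM, and those of mast cells at 0, 5.81, 0 and 6.23 CPM. The 5 leading genes of an unnamed cluster of AS and MTZ-preventive barcodes (Prg4, Serpina3n, Cyp2e1, Hp and Cxcl13) summed to 20.6, 3199, 240 and 2073 CPM. The lineage that accompanied the macrophages thus differed between libraries, and its part in the results was not tested.

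In AS, the C1q macrophages could be set beside the 57 foam-type barcodes of the same library, which the choice of members separates by Mmp12, Trem2 and Gpnmb. As a description, 129 of 1244 genes were at least 2-fold higher in the C1q macrophages (10.4%) and 73 were lower (5.87%). Spp1 was at 7676 CPM in the C1q macrophages and 2.62-fold higher in the foam-type barcodes, the bone and plaque protease Ctsk was 15.1-fold higher there, and Lgals3 2.57-fold. Lipid and plaque genes as a group were at 18435 and 34623 CPM, and lysosome genes at 9284 and 17323 CPM. The C1q genes themselves were lower in the C1q macrophages, at 7310 against 12498 CPM, and Folr2 was 4.31-fold and Ccl12 4.31-fold lower.

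The MHC class II genes were at 534 CPM in the C1q macrophages of AS and 443 CPM in its foam-type barcodes, a ratio of 1.20 with an interval (0.859 to 1.70) that spans 1. Genes higher in the C1q macrophages were Cxcl13 (69.9-fold, 19.1 to 582), S100a8 (11.2-fold, 4.94 to 31.4), S100a9 (5.84-fold, 3.56 to 10.2), the leukotriene enzyme Ltc4s (13.5-fold, 3.47 to 116) and the endothelial Ramp2 (6.44-fold, 3.22 to 14.6) and Sox18 (19.3-fold, 3.16 to 793). Cxcl13, Ltc4s and Sox18 had only 1 or 2 UMIs in the foam-type barcodes. Neutrophil genes were at 1504 and 256 CPM. Endothelial genes were at 5127 and 2179 CPM, of which Fabp4 made up 4024 and 1924 CPM. The low MHC class II level of AS was thus found on both sides of the limit on foam cell genes. MTZ-treated and MTZ-preventive held 15 and 10 foam-type barcodes, under the minimum of 20 set for a comparison.

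**Figure D5:**
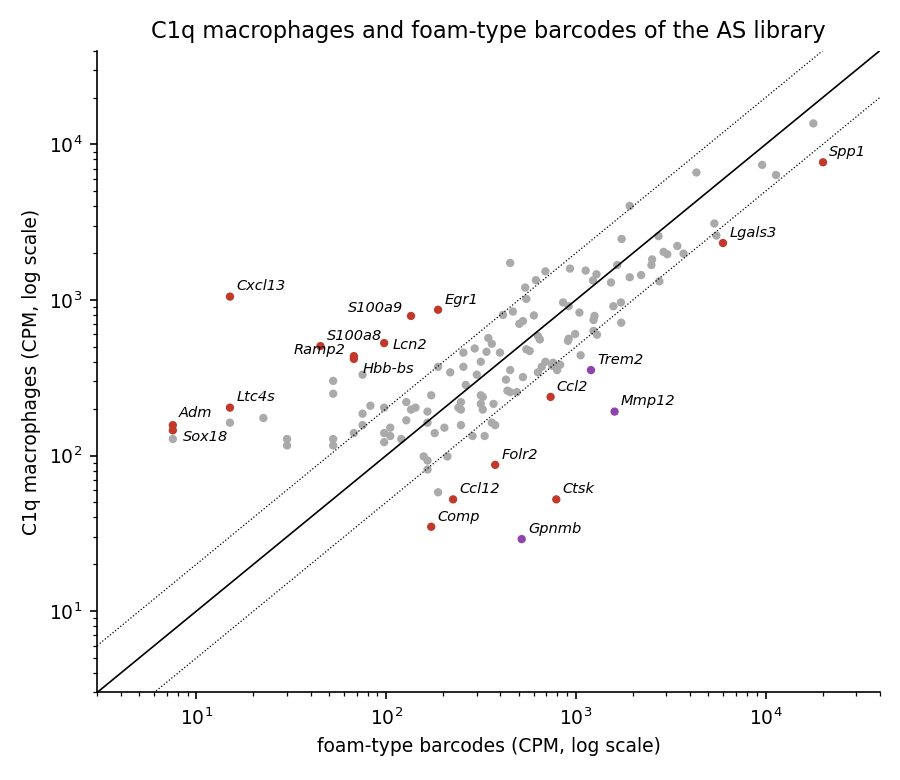
Level of genes in the 107 C1q macrophages (CPM, y axis, logarithmic) against the 57 foam-type barcodes (CPM, x axis, logarithmic) of AS for listed genes and the 10 highest and 10 lowest, which are named (purple for genes of the choice, red for the rest), with a solid line at equal levels and dotted lines at 2-fold. Spp1, Ctsk and Lgals3 lie below the lower dotted line and Cxcl13 and S100a8 above the upper one.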

How the data were processed

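The authors deposited raw UMI counts of 32285 genes by barcode, made with Cell Ranger (5.0.0 by the matrix headers). The submitters' processing notes name STAR and mm10. The 12 samples are 4 gene expression libraries, made with a 10x 5′ kit, and 8 receptor libraries, used only for counts of contigs. The deposited matrices held 21857, 6908, 20938 and 23963 barcodes (42235505, 7617682, 26196680 and 50769911 UMIs), of which 12340, 2201, 7215 and 16316 passed the limits on genes, UMIs and mitochondrial UMIs. The study's further limits on complexity (0.7) and red blood cell UMIs (5%) would leave 12339, 2199, 7212 and 16316. The study removed doublets with DoubletFinder. Here they were kept, and calls from 2 simulated doublets per barcode at an expected rate of 0.8% per 1000 barcodes served as an alternative.

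Counts of 38 symbols that stand on more than 1 line were summed. Ratios of CPM carry exact conditional binomial intervals, levels exact Poisson intervals and shares Clopper-Pearson intervals, all at 95%. Mitochondrial, immunoglobulin and T cell receptor genes and unnamed gene models were left out of counts of genes. Genes were named if they were part of the rule or of 1 of 32 lists, or were among the 10 highest or lowest of a comparison by the bounds of the ratio. Some genes that meet this rule are not reported here. The members and lists were chosen with earlier results of these data known. Promoters were read from RefSeq windows of 300 bases. Scripts were tested on simulated data. The software was scikit-learn 1.9.0, scipy 1.17.1, matplotlib 3.10.9, pandas 2.3.3 and numpy 2.4.6 under Python 3.11.15, and edgeR 4.0.16 (R 4.3.3), which gave only TMM factors.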

Additional observations from a re-analysis of the deposited data

How the results depend on the processing

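No paired analysis was possible because each group has 1 library and no test was made, and for the same reason no replicate could be left out. Shares of C1q macrophages as log2 ratios (3.27 for AS over the library labelled Healthy, -0.67 for MTZ-treated over AS and -2.82 for MTZ-preventive over AS) moved by more than counting error in 7 of 27 repeats. Thinning every barcode to 1000 UMIs gave -1.02 and -3.25 for the MTZ libraries. Asking for none of Mmp12, Trem2 and Gpnmb gave 2.57 for AS over the library labelled Healthy, and leaving barcodes with Cd79a or Cd3d out of the denominator gave 1.96. Without members that held other lineages' genes, the 3 ratios were 2.10, -0.073 and -2.38.

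Counts of genes higher and lower by at least 2-fold moved by over 1.5 times in 27 of 78 repeats. At least 10 UMIs gave 566 and 442 for AS over the library labelled Healthy, 709 and 354 for MTZ-treated over AS, and 736 and 245 for MTZ-preventive over AS. At least 50 UMIs gave 88 and 77, 111 and 31, and 106 and 25. No minimum with 10 CPM added gave 1512 and 1407, 819 and 756, and 1114 and 676. None of the foam cell genes left 86 higher in AS over the library labelled Healthy, and 66 and 44 lower in MTZ-treated and MTZ-preventive over AS. Without members with other lineages' genes, 85 were higher in AS over the library labelled Healthy, 219 higher and 56 lower in MTZ-treated over AS, and 39 lower in MTZ-preventive over AS. Looser limits (500 UMIs, 20% mitochondrial) gave 442 higher in AS over the library labelled Healthy and 181 lower in MTZ-preventive over AS.

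Among repeats of list ratios, 298 stayed within counting error, 126 moved beyond it and 5 changed sign. Among repeats of single genes, 432 stayed and 60 moved. The causes were not tested. For MTZ-preventive over AS, the interferon list went from 0.17 to -0.16 as a mean over members and to -0.10 without the foam cell genes, but to 1.14 without members with other lineages' genes (and from -0.76 to -1.60 for AS over the library labelled Healthy), the lysosome list from 0.09 to -0.10 without the foam cell genes, and the macrophage identity list from -0.24 to 0.026 without doublets. The inflammatory list of MTZ-treated over AS went from 0.72 to -0.22 without the foam cell genes. The MHC class II list kept its direction under all 13 settings tried for it, at -6.53 to -4.41, 2.98 to 5.32 and 3.40 to 5.28, and the resident list at -1.78 to -0.72, 0.03 to 0.58 and 0.24 to 1.63. TMM factors shifted all log2 ratios by -0.05, 0.13 and 0.02. The alternative with at least 3 macrophage genes was chosen after seeing the data. Depth limits a gene at 0 in AS members to 17.4 CPM.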

Other observations

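Members with fewer than 3 of the 18 macrophage genes held MHC class II genes at 8522, 870, 2761 and 2717 CPM (order labelled Healthy, AS, MTZ-treated and MTZ-preventive), against 46924, 633, 27551 and 26163 CPM in the cleaner members. Barcodes that met every limit except the absence of Cd79a and Cd3d numbered 29, 3, 6 and 23, and barcodes with at least 2 C1q genes but none of Csf1r, Tyrobp and Fcer1g numbered 16, 20, 37 and 32. Stromal barcodes with at least 2 C1q genes numbered 22, 20, 37 and 33 of 4726, 1190, 5564 and 9992. The monocyte receptor gene Ccr2 was at 68.5, 0, 49.7 and 53.0 CPM in the C1q macrophages, with 76.5% of the MTZ-preventive UMIs in 1 member, and Batf3, a transcription factor of dendritic cells, at 89.1, 0, 51.9 and 31.2 CPM.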
